A study of Mus musculus with 6 samples.

Results

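The genes described here build clathrin-coated vesicles: the clathrin heavy chain CLTC and its light chains CLTA and CLTB, the adaptors PICALM, SNAP91 and AP2A1, the dynamins DNM1 and DNM2, and BIN1 and ITSN1. They were chosen by symbol, with earlier results of these data known. Their isoforms are all the rows that carry these symbols, which gave 10 of 58870 genes and 184 of 208621 isoforms. Of these isoforms, 79 had enough reads to be tested, 60 had some counts but did not pass the filter, and 45 had no count in any sample. RNA-seq was performed on 77-5 cells, 1 clone of T-REx-293. This is a derivative of the HEK293 line of human embryonic kidney with a tetracycline repressor, so that doxycycline switches on a gene placed under its control. In the Dox group (n = 3), Rbfox1 was induced with doxycycline at 0.5 mg/ml for 48 h (the unit in the labels and methods, whereas the study's figure legends give micrograms per ml), and the No Dox group (n = 3) was the same clone without doxycycline. Cells of both groups carried the inducible Rbfox1 and a TrkB (Ntrk2) minigene of mouse built from a bacterial artificial chromosome. The organism given in the labels is mouse, although the cell line is human and the tables hold human transcripts. Nothing in the labels says that the samples came from separate cultures, so p-values measure only the spread between these samples, which may be technical. The effect of doxycycline itself and that of Rbfox1 cannot be told apart in this design.

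In clathrin-mediated endocytosis, the AP-2 complex and adaptors of the PICALM family bind a phosphoinositide of the plasma membrane together with cargo, and recruit clathrin. Clathrin triskelia, each made of heavy chains with bound light chains, assemble into a lattice around the budding pit. Proteins with a BAR domain such as BIN1 bend the membrane of the neck, and dynamin, a GTPase, wraps around it and cuts the vesicle free. Several of these genes are known for exons that differ between neurons, muscle and other tissues, and Rbfox1 is an RNA-binding protein that regulates such alternative exons.

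Total expected counts, RSEM's estimates of fragments, were between 5.98e+07 and 6.58e+07 in the Dox samples and between 6.23e+07 and 6.58e+07 in the No Dox samples. RBFOX1 was at 188.3 ± 1.8 TPM (SD) in Dox and at 7.53 ± 0.79 TPM in No Dox, with a log2 fold change of 4.55, and RBFOX2 was at 17.0 ± 0.9 TPM in Dox and 48.3 ± 1.6 TPM in No Dox. TPM is the relative abundance of transcripts, scaled for isoform length, whereas CPM is a count scaled to library size alone (here after TMM). Of 8 genes known in HEK293 cells, 7 had a mean of at least 1 TPM, with a summed level of 1039 to 1076 TPM in Dox and 1162 to 1178 TPM in No Dox. The defining markers of muscle (0 of 5 genes at 1 TPM or more), blood (0 of 3), endothelium (0 of 2) and liver (0 of 2) were at or near 0. Of 5 neuron markers, 3 reached 1 TPM, and the summed level of the list was 15.7 to 16.4 TPM in Dox and 18.4 to 20.01 TPM in No Dox. Most of that sum was TUBB3, which fell (10.99 ± 0.38 TPM in Dox and 15.1 ± 0.8 TPM in No Dox). SYT1 rose by 0.41 on the log2 scale (edgeR adjusted p = 0.00019). SYN1 rose by 0.78 in counts (edgeR adjusted p = 0.016). Its level was low, at 0.30 ± 0.05 TPM in Dox and 0.22 ± 0.12 TPM in No Dox, and the TPM of the groups overlapped. RBFOX3 did not pass (0.01, edgeR adjusted p = 0.96), and STMN2 had too few reads to be tested.

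At the gene level, 4 of the 10 genes changed: SNAP91 and ITSN1 rose, and DNM1 and DNM2 fell. The edgeR quasi-likelihood test called 51.4% of the 18264 genes tested at an adjusted p of 0.05, with 24.9% up and 26.5% down, so the share among the 10 was not above that of all genes. The CPM of the groups did not overlap for 5 of the 10 genes, the 4 called and CLTC, against 58.2% of all genes. The median log2 fold change was -0.03 over the 10 genes and 0.00 over all genes tested, and the median absolute value was 0.05 and 0.18. Isoform usage, which asks whether an isoform changed differently from the rest of its gene, passed the diffSplice test in 7 of the 10 genes, against 27.5% of the 12328 genes tested. These were PICALM, SNAP91, CLTA, CLTC, DNM1, DNM2 and ITSN1, and those that did not pass were CLTB, AP2A1 and BIN1. The share of all genes was not matched for the number of isoforms tested or for depth. As the 10 genes were also chosen with earlier results of these data known, the shares do not measure an excess among them. With diffSpliceDGE, an alternative to diffSplice, the calls of SNAP91 (adjusted p = 0.34), DNM1 (0.065) and ITSN1 (0.13) were lost, and AP2A1 was called. Over the whole tables, diffSpliceDGE called 1225 genes for usage and diffSplice 3386. In simulated data diffSplice called more unchanged genes than its threshold allows, so its calls near 0.05 are uncertain. An isoform percentage states how much of the TPM of its gene RSEM gave to that isoform. In each gene tested for usage with a mean of at least 5 TPM in a group, the isoform whose mean percentage differed most between the groups was taken. That difference had a median of 15.2 points over the 9 members at this level (all but BIN1) and of 4.10 points over 10172 genes. The value of the members rested on short isoforms of DNM1 and CLTC described further on. It was 11.5 points with DNM1-221 not counted and 5.40 points with DNM1-221 and CLTC-205 not counted, both alternatives chosen after seeing the data. Short isoforms were left out for the members only, and the value over 10172 genes was not matched for the number of isoforms per gene.

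Of the 79 isoforms tested on their own with limma-voom, 10 rose and 11 fell, against 6.19% up and 6.44% down over all 72438 isoforms tested. In 5 genes (PICALM, SNAP91, CLTC, DNM1 and DNM2) some isoforms rose and others fell, against 7.49% of all genes tested for usage. In 7 genes, those 5 with CLTA and ITSN1, at least 1 isoform was called, against 43.7% of the genes tested for usage. Neither share of all genes was matched for the number of isoforms tested per gene, which was 7 to 13 in those 5 genes. Isoforms of a gene overlap in sequence, and RSEM estimates how their common reads are divided, so single isoforms are known less well than their gene sum. Reads of the close relatives PICALM and SNAP91, CLTA and CLTB, CLTC and CLTCL1, and DNM1, DNM2 and DNM3 can be divided between genes in the same way.

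**Figure D1:**
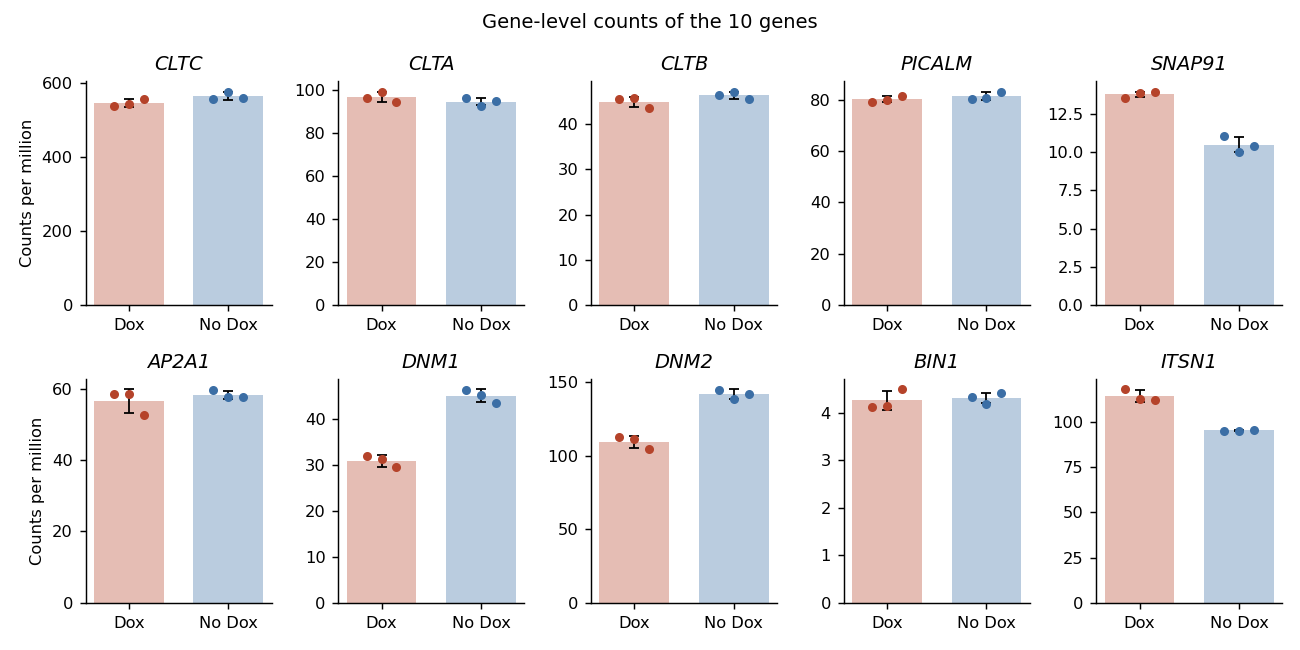
Gene-level CPM of the 10 genes in each sample, with Dox on the left and No Dox on the right of each panel, points for samples and bars for the mean ± SD (n = 3 each). DNM1 and DNM2 lay lower and SNAP91 and ITSN1 higher in every Dox sample than in any No Dox sample, and CLTC lay at 537 to 557 CPM in Dox against 557 to 577 CPM in No Dox.

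**Figure D2:**
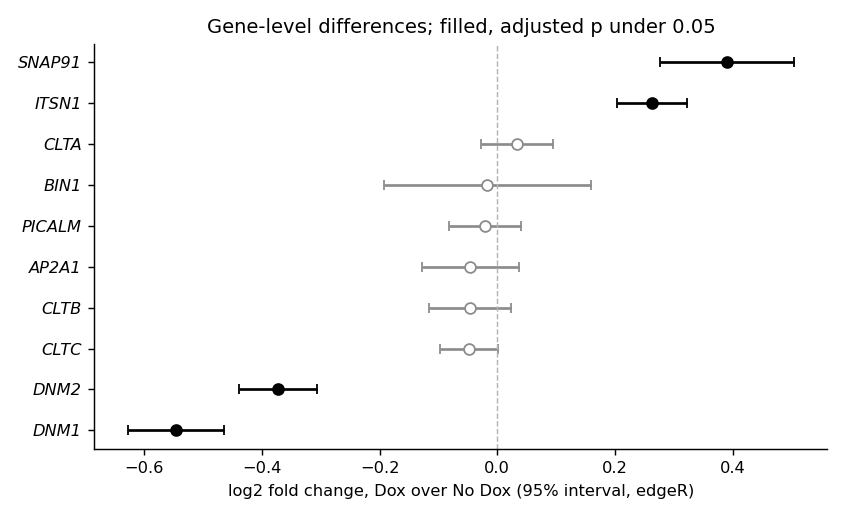
Log2 fold change of gene sums (Dox over No Dox, edgeR) with its 95% confidence interval for each of the 10 genes, with filled points for those that passed the test. The intervals of DNM1 and DNM2 lie below 0, those of SNAP91 and ITSN1 lie above 0, and the other 6 include 0.

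PICALM (ENSG00000073921.18), the clathrin assembly protein found in most tissues, kept a similar total while its isoforms changed. It had 79.3, 79.9 and 81.5 CPM in the Dox samples, against 80.3, 80.8 and 83.1 CPM in the No Dox samples. The values of the groups overlapped, and the difference did not pass the test (log2 fold change -0.02 ± 0.03 (SE), 95% interval -0.08 to 0.04, edgeR adjusted p = 0.57). Of its 24 isoforms, 4 were named by their share and all of these changed, with an adjusted usage p of 3.7e-17 for the gene by diffSplice.

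The leading isoform in both groups was PICALM-202 (4134 nt), which held 50.9%, 48.1% and 46.0% of PICALM in the Dox samples and 33.1%, 38.4% and 32.8% in the No Dox samples. The groups did not overlap, and its level rose by 0.50 ± 0.06 on the log2 scale (SE, limma-voom adjusted p = 0.0027). PICALM-219 (3474 nt) was the second isoform without doxycycline. It held 3.36%, 5.75% and 3.56% in the Dox samples, against 26.0%, 19.4% and 28.0% in the No Dox samples. Every Dox value lay far below every No Dox value, and its log2 fold change was -2.55 ± 0.28 (limma-voom adjusted p = 0.0023). In counts, 219 to 335 fragments were assigned to PICALM-219 in Dox and 1163 to 1799 in No Dox.

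The other pair were short transcripts. PICALM-213 (905 nt) held 14.7%, 14.6% and 17.3% in the Dox samples and 5.16%, 7.34% and 7.97% in the No Dox samples, and rose by 1.22 ± 0.21 (log2, limma-voom adjusted p = 0.013). PICALM-212 (1153 nt) held 3.12%, 2.06% and 2.91% in the Dox samples and 14.8%, 13.1% and 9.17% in the No Dox samples, and its log2 fold change was -2.15 ± 0.28 (adjusted p = 0.0047). A long and a short isoform thus rose, and a long and a short isoform fell, but no sequence was used to link them. The sums that follow put together isoforms that went the same way, so the sign of their differences was set in advance. PICALM-202 and PICALM-213 together held 63.8 ± 1.5% in Dox and 41.6 ± 3.8% in No Dox (SD), and PICALM-219 and PICALM-212 together held 6.92 ± 0.77% in Dox and 36.8 ± 4.2% in No Dox. The usage call of PICALM-213 was lost without No Dox replicate 1 (adjusted p = 0.071) or Dox replicate 3 (adjusted p = 0.11), and the isoform calls of these 4 held in all 14 alternatives run.

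**Figure D3:**
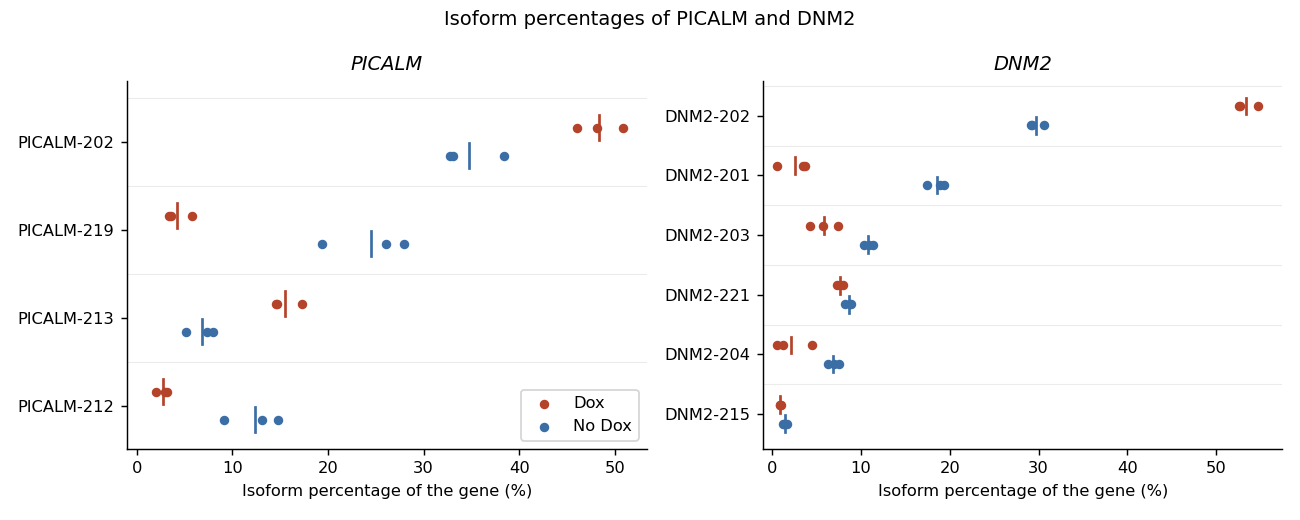
Percent of gene TPM (horizontal axis) held by the named isoforms of PICALM and DNM2, with Dox above No Dox for each isoform, points for samples and vertical ticks for the mean of 3. PICALM-219 lay at 3.36% to 5.75% in Dox and 19.4% to 28.0% in No Dox, and DNM2-202 at 52.5% to 54.7% in Dox and 29.1% to 30.6% in No Dox.

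SNAP91 (ENSG00000065609.14), also called AP180, is the relative of PICALM that is enriched in neurons, where it sets the size of synaptic vesicles. It was the second lowest of the 10 genes in CPM, with 13.6, 13.8 and 13.9 CPM in the Dox samples and 11.03, 10.0 and 10.4 CPM in the No Dox samples. All Dox samples lay above all No Dox samples, and the gene rose by 0.39 ± 0.05 on the log2 scale (edgeR adjusted p = 1.5e-05). In TPM the groups overlapped, with 5.70, 6.42 and 6.97 in Dox and 6.34, 5.94 and 6.77 in No Dox, and limma on log2(TPM + 1) gave an adjusted p of 0.997. The mean isoform length of SNAP91, weighted by TPM, was 3360 ± 291 nt in Dox and 2537 ± 142 nt in No Dox (SD), so that equal TPM corresponded to more counts in Dox. In TPM, the short isoform SNAP91-219 (889 nt) was at 0.52, 1.32 and 1.7 in Dox and 1.72, 1.96 and 2.32 in No Dox. The long SNAP91-212 was at 3.73, 3.49 and 3.06 TPM in Dox and 2.06, 1.67 and 1.96 TPM in No Dox. Gene TPM without SNAP91-219 was not tested, so the overlap in TPM does not show an unchanged level.

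Of its 22 isoforms, the one with the highest mean percentage differed between the groups. By counts, SNAP91-212 led in every sample, with 554 to 665 fragments in Dox and 284 to 370.5 in No Dox. SNAP91-212 (4136 nt) held 65.5%, 54.3% and 44.0% in the Dox samples and 32.4%, 28.2% and 28.9% in the No Dox samples, and it rose by 0.84 ± 0.12 (log2, limma-voom adjusted p = 0.0072). SNAP91-219 (889 nt) held 9.14%, 20.6% and 24.4% in Dox and 27.2%, 33.0% and 34.2% in No Dox. There it was the leading isoform by mean TPM, although SNAP91-212 was ahead in No Dox replicate 1. From 16.6 to 55.04 fragments in Dox and 55.7 to 72.1 in No Dox stood behind this isoform, and its own test was not passed (log2 fold change -0.92 ± 0.42, limma-voom adjusted p = 0.22). Its usage call (diffSplice adjusted p = 0.021) was lost without No Dox replicate 2 (0.077), No Dox replicate 3 (0.14) or Dox replicate 1 (0.19). SNAP91-211 (2168 nt) held 6.77%, 4.98% and 6.05% in Dox and 17.3%, 13.8% and 11.8% in No Dox, a log2 fold change of -1.26 ± 0.24 (limma-voom adjusted p = 0.018). That call was lost when Dox replicate 1, 2 or 3 was left out (adjusted p = 0.064, 0.069 and 0.051), whereas its usage call held in the 8 alternatives run on that isoform, which did not include diffSpliceDGE. By counts, PICALM made up 85.4 ± 0.1% of the sum of PICALM and SNAP91 in Dox and 88.6 ± 0.6% in No Dox. In TPM this share was 87.5 ± 0.9% in Dox and 87.2 ± 0.4% in No Dox, and the groups overlapped.

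AP2A1 (ENSG00000196961.12), an alpha subunit of AP-2, did not pass either test. It had 58.4, 58.4 and 52.7 CPM in the Dox samples, against 59.5, 57.7 and 57.5 CPM in the No Dox samples, with a log2 fold change of -0.05 ± 0.04 (95% interval -0.13 to 0.04, edgeR adjusted p = 0.35). AP2A1-201 (3388 nt) was the main isoform, with 76.0%, 80.3% and 76.2% in Dox and 82.3%, 81.9% and 79.8% in No Dox (limma-voom adjusted p = 0.28). AP2A1-204 (611 nt) held 8.08% to 13.6% in Dox and 9.45% to 10.8% in No Dox. The usage p for the gene was 0.27 (diffSplice, adjusted), but it was 0.019 without Dox replicate 1 and 8.1e-07 with diffSpliceDGE, so the call depends on the samples and the tool.

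Both dynamins fell at the gene level. DNM2 (ENSG00000079805.16), the dynamin of most cell types, had 113, 111 and 105 CPM in the Dox samples and 145, 139 and 142 CPM in the No Dox samples. The highest Dox sample was below the lowest No Dox sample, and the log2 fold change was -0.37 ± 0.03 (edgeR adjusted p = 6.1e-08). In TPM, DNM2 averaged 61.3 ± 1.3 in Dox and 75.2 ± 1.4 in No Dox (SD).

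The change of DNM2 was uneven over its 22 isoforms (diffSplice adjusted p = 8.5e-15). DNM2-202 (3588 nt) rose, with 54.7%, 52.5% and 52.6% of DNM2 in the Dox samples, against 29.1%, 29.3% and 30.6% in the No Dox samples, and a log2 fold change of 0.54 ± 0.04 (limma-voom adjusted p = 0.00048). DNM2-201 (3541 nt) went the other way, with 3.54%, 3.71% and 0.54% in Dox and 19.3%, 17.5% and 18.9% in No Dox, and a log2 fold change of -3.60 ± 0.56 (adjusted p = 0.0086). DNM2-203 (3581 nt) also fell, with 5.75%, 4.29% and 7.49% in Dox, 10.9%, 11.4% and 10.3% in No Dox and a log2 fold change of -1.22 ± 0.16 (adjusted p = 0.0046). These 3 isoforms differ little in length, and their calls held in all 14 alternatives.

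DNM2-204 (3013 nt) held 1.29%, 4.56% and 0.58% in Dox and 7.54%, 6.31% and 6.94% in No Dox. No Dox values were all above Dox values, and the log2 fold change was -2.53 ± 0.55 (limma-voom adjusted p = 0.030). The isoform call was lost without Dox replicate 1 or 3 or any 1 of the No Dox replicates (adjusted p = 0.064 to 0.11). The usage call held in the 7 alternatives run on this isoform, which did not include diffSpliceDGE. DNM2-201, DNM2-203 and DNM2-204 together held 10.6%, 12.6% and 8.61% in the Dox samples and 37.7%, 35.2% and 36.2% in the No Dox samples. All of them fell, so the sign of that difference was set by the grouping. Their sum varied less between the Dox samples than DNM2-201 or DNM2-204 did relative to their own means.

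DNM2-215 (5651 nt) and DNM2-221 (2507 nt) fell at the isoform level, by 0.88 ± 0.16 and 0.48 ± 0.09 on the log2 scale (limma-voom adjusted p = 0.016 and 0.015), and neither passed for usage (0.32 and 0.62 by diffSplice). The call of DNM2-215 was lost without Dox replicate 1 or 3 (adjusted p = 0.058 each), and that of DNM2-221 without No Dox replicate 1, No Dox replicate 3, Dox replicate 2 or Dox replicate 3 (0.055 to 0.057). DNM2-221 held 7.38% to 8.03% of the gene in Dox and 8.26% to 8.90% in No Dox.

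DNM1 (ENSG00000106976.20), the dynamin of neurons that serves synaptic vesicle recycling, fell further than DNM2. It had 31.9, 31.3 and 29.5 CPM in the Dox samples, against 46.3, 45.3 and 43.6 CPM in the No Dox samples. There was no overlap, and the log2 fold change was -0.55 ± 0.04 (edgeR adjusted p = 8.7e-09). DNM2 made up 77.9%, 78.1% and 78.0% of the summed counts of both dynamins in the Dox samples and 75.8%, 75.3% and 76.5% in the No Dox samples.

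In TPM the picture of DNM1 was different, with 32.5, 19.2 and 17.9 in the Dox samples and 26.0, 25.6 and 25.4 in the No Dox samples. The high value of Dox replicate 1 came from 1 expected count on DNM1-221, an isoform of 111 nt with an effective length of 1.82 nt in that sample. RSEM gave this fragment 12.2 TPM, or 37.6% of the gene, and DNM1-221 was at 0 in the other 5 samples. Without it, DNM1 was at 20.3, 19.2 and 17.9 TPM in Dox, against 26.0, 25.6 and 25.4 TPM in No Dox, and the groups no longer overlapped.

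Of the 29 isoforms of DNM1, DNM1-213 (3835 nt) was the largest in No Dox. It held 18.7%, 29.0% and 27.6% in Dox and 38.5%, 41.6% and 41.0% in No Dox, and it fell by 0.92 ± 0.08 on the log2 scale (limma-voom adjusted p = 0.00088). With DNM1-221 left out, its share was 30.1%, 29.0% and 27.6% in Dox, so the difference from No Dox did not rest on that fragment. DNM1-222 (2462 nt) fell by 0.52 ± 0.10 (adjusted p = 0.018), close to the gene as a whole, and its usage p was 0.94. DNM1-205 (871 nt) had a log2 fold change of -0.49 ± 0.14 and did not pass (adjusted p = 0.070).

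DNM1-214 (3442 nt) was the isoform of DNM1 that rose, by 0.73 ± 0.17 (log2, limma-voom adjusted p = 0.037), with 5.69%, 9.40% and 7.70% in the Dox samples and 3.72%, 4.34% and 3.59% in the No Dox samples. Its isoform call was lost without any 1 of the No Dox replicates or Dox replicate 1 or 2 (adjusted p = 0.076 to 0.12). Its usage call (0.00012 by diffSplice) held in the 7 alternatives run on it, which did not include diffSpliceDGE. The call of DNM1-222 was lost without replicate 1 or 2 of either group (0.055 to 0.068). DNM1-202 (3244 nt) had 105, 111 and 204 fragments in Dox and 68.0, 22.4 and 0 in No Dox. It passed for usage (diffSplice adjusted p = 0.00097) and not as an isoform (limma-voom adjusted p = 0.16), and the usage call was lost without No Dox replicate 1 (0.088) or No Dox replicate 2 (0.059).

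CLTC (ENSG00000141367.11), the heavy chain that forms the legs of the triskelion, was the highest of the 10 genes in CPM. It had 537, 545 and 557 CPM in the Dox samples, against 557, 577 and 561 CPM in the No Dox samples, with a log2 fold change of -0.05 ± 0.02 that did not pass (95% interval -0.10 to 0.00, edgeR adjusted p = 0.094). Without Dox replicate 3 the value was -0.06 and passed (adjusted p = 0.020). In TPM the direction was the opposite, with 161, 163 and 170 in Dox and 133, 138 and 133 in No Dox, and limma on log2(TPM + 1) gave 0.28 (adjusted p = 0.00029).

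The difference between the scales lay in CLTC-205, a transcript of 665 nt. It had 1005, 973 and 1050 fragments in the Dox samples and 357, 390 and 334 in the No Dox samples, and rose by 1.47 ± 0.09 on the log2 scale (limma-voom adjusted p = 0.00023). Since TPM divides by length, these few fragments, of a mean of 35260 for the gene in Dox and 35474 in No Dox, made up 28.8%, 29.7% and 27.9% of CLTC in Dox and 12.1%, 13.5% and 11.8% in No Dox. Without CLTC-205, the gene was at 114, 114 and 122 TPM in Dox and 117, 120 and 117 TPM in No Dox, values that overlap.

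CLTC-201 (7760 nt), the longest of the main transcripts, held 50.2%, 49.5% and 47.6% in the Dox samples and 61.9%, 63.2% and 64.8% in the No Dox samples. Its own level differed little, with a log2 fold change of -0.09 ± 0.02 (limma-voom adjusted p = 0.018), and that call was lost without No Dox replicate 3 (0.061), Dox replicate 1 (0.072) or Dox replicate 2 (0.056). With CLTC-205 left out, its share was 70.44%, 70.44% and 65.98% in Dox and 70.43%, 73.0% and 73.5% in No Dox, and the groups overlapped. CLTC-209 (2941 nt) rose by 0.80 ± 0.12 (adjusted p = 0.0086) and held 1.45% to 1.63% in Dox and 1.01% to 1.14% in No Dox. Its usage p was 0.049 (diffSplice, adjusted) and was 0.11 to 0.18 without any 1 of the No Dox replicates or Dox replicate 2 or 3. CLTC-202 (5292 nt) held 14.2%, 15.5% and 17.1% in Dox and 17.5%, 16.2% and 16.1% in No Dox, and the groups overlapped. With CLTC-205 left out, its share was 21.9 ± 1.9% in Dox and 19.0 ± 0.8% in No Dox (SD), without overlap. It passed for usage (0.011) and not as an isoform (0.18 ± 0.09, adjusted p = 0.27). The usage call was lost without replicate 2 or 3 of either group (0.068 to 0.16).

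The light chains, which regulate clathrin assembly, did not pass at the gene level. CLTA (ENSG00000122705.17) had 96.6, 99.4 and 94.7 CPM in Dox and 96.3, 92.8 and 94.9 CPM in No Dox (log2 fold change 0.03 ± 0.03, 95% interval -0.03 to 0.09, edgeR adjusted p = 0.36). CLTB (ENSG00000175416.13) had 45.5, 45.7 and 43.6 CPM in Dox and 46.4, 47.2 and 45.6 CPM in No Dox (-0.05 ± 0.03, interval -0.12 to 0.02, adjusted p = 0.26). Both genes were made mainly of 1 isoform each. CLTA made up 69.8%, 70.2% and 70.2% of the summed TPM of both in the Dox samples and 69.4%, 68.3% and 69.2% in the No Dox samples.

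CLTA-202 (1078 nt) held 93.8%, 94.0% and 95.3% in Dox and 97.2%, 94.3% and 96.9% in No Dox, and its level did not pass (limma-voom adjusted p = 0.64). CLTA-207 (1102 nt), a minor isoform, rose, with 2.39%, 2.71% and 1.49% in Dox and 0.56%, 0.31% and 0.51% in No Dox, and a log2 fold change of 2.28 ± 0.40 (adjusted p = 0.014). Leaving out No Dox replicate 2 or 3 moved this call past the threshold (0.050 and 0.051). The usage call of CLTA-207 (diffSplice adjusted p = 0.0012) held in the 7 alternatives run on it, which did not include diffSpliceDGE. The usage call of CLTA-202 (0.025) was lost without No Dox replicate 1, No Dox replicate 3, Dox replicate 1 or Dox replicate 2 (0.058 to 0.15). CLTB-202 (1161 nt) held 96.0% to 96.7% of CLTB in Dox and 96.8% to 98.5% in No Dox (limma-voom adjusted p = 0.58), and the usage p of CLTB was 0.16.

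**Figure D4:**
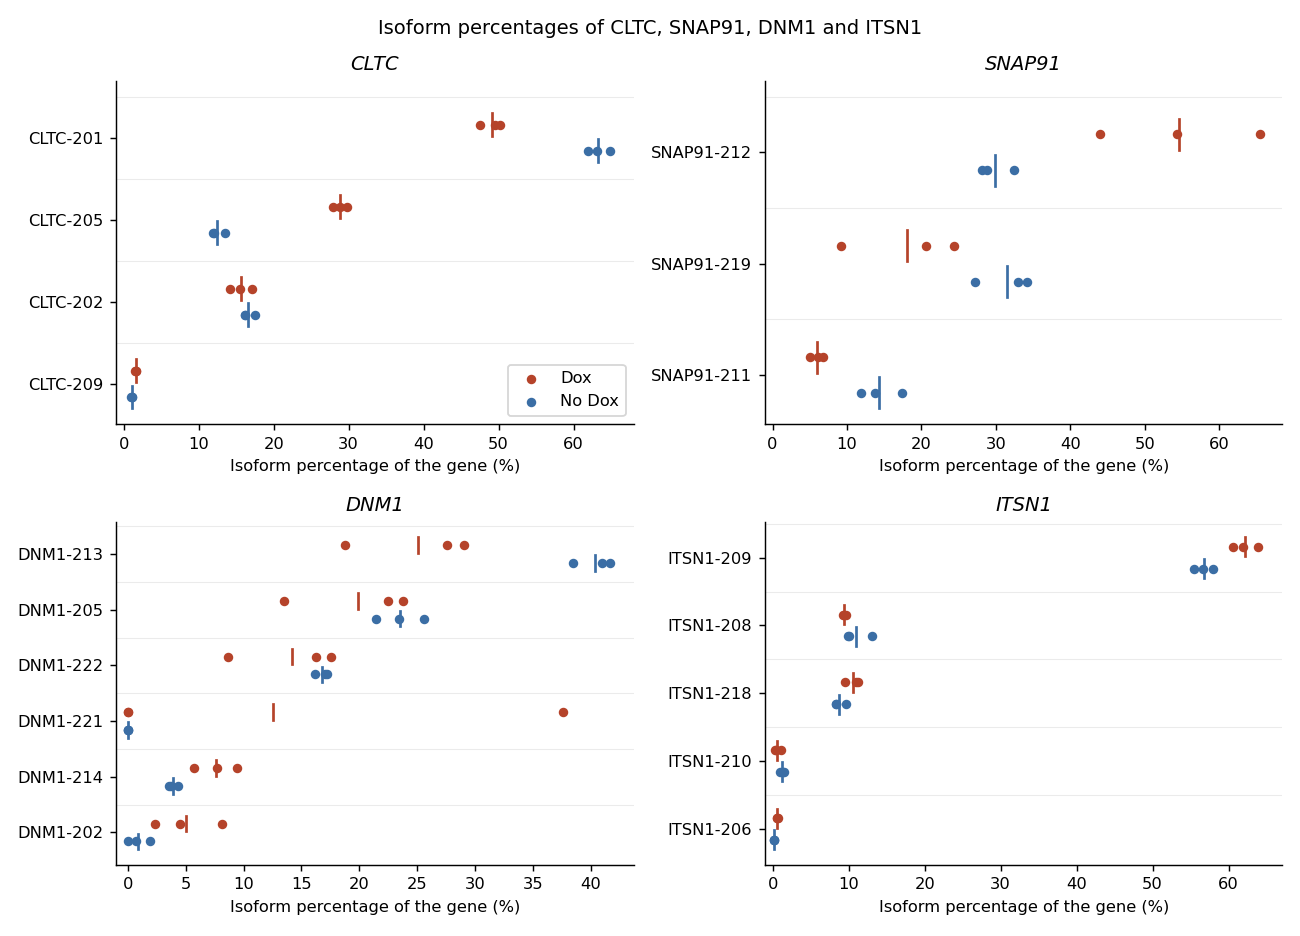
Percent of gene TPM (horizontal axis) held by the named isoforms of CLTC, SNAP91, DNM1 and ITSN1, with Dox above No Dox for each isoform, points for samples and vertical ticks for the mean of 3. CLTC-205 lay at 27.9% to 29.7% in Dox and 11.8% to 13.5% in No Dox, and the single point of DNM1-221 at 37.6% is Dox replicate 1.

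**Figure D5:**
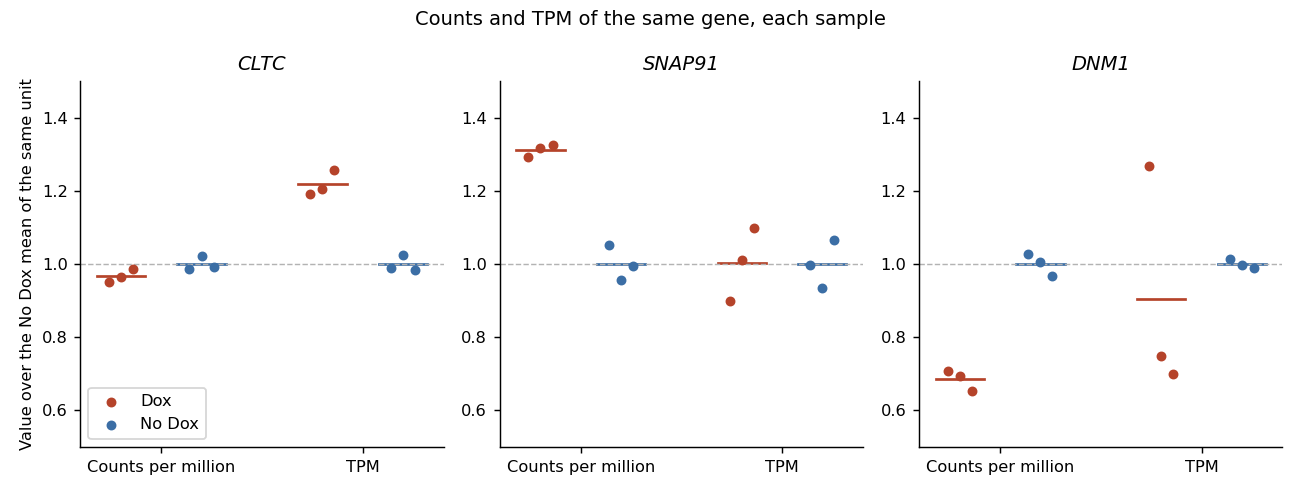
Gene CPM and gene TPM of CLTC, SNAP91 and DNM1 in each sample, each divided by the No Dox mean of the same unit (vertical axis, drawn from 0.5 to 1.5), with Dox left of No Dox, points for samples and lines for means. CLTC was 537 to 557 CPM in Dox and 557 to 577 CPM in No Dox, while its TPM was 161 to 170 in Dox and 133 to 138 in No Dox.

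ITSN1 (ENSG00000205726.15), intersectin, is a scaffold with EH and SH3 domains that binds dynamin and other coat proteins. It had 118, 113 and 112 CPM in the Dox samples, against 95.1, 95.1 and 95.3 CPM in the No Dox samples. All Dox values were higher, and the gene rose by 0.26 ± 0.03 on the log2 scale (edgeR adjusted p = 1.0e-06). TPM gave the same direction, with 41.3 ± 0.8 in Dox and 35.7 ± 1.3 in No Dox (SD).

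The main isoform of ITSN1 was ITSN1-209 (5408 nt), with 63.9%, 60.7% and 61.9% in Dox and 56.7%, 58.0% and 55.5% in No Dox. It rose by 0.33 ± 0.03 (log2, limma-voom adjusted p = 0.0018) and did not pass for usage (0.21 by diffSplice). ITSN1-206 (16972 nt), the longest named isoform, held less than 1% in every sample, at 0.72%, 0.53% and 0.53% in Dox and 0.17%, 0.23% and 0.14% in No Dox. It had 156 to 227 fragments in the Dox samples and 37.6 to 57.8 in the No Dox samples, rose by 1.94 ± 0.24 (log2, limma-voom adjusted p = 0.0039) and passed for usage (1.2e-05). ITSN1-218 (936 nt) held 9.52% to 11.2% in Dox and 8.29% to 9.68% in No Dox and did not pass (adjusted p = 0.11).

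ITSN1-208 (5191 nt) and ITSN1-210 (3913 nt) passed for usage alone (diffSplice adjusted p = 0.031 and 0.0047). The first held 9.63%, 9.19% and 9.44% in Dox and 13.1%, 10.1% and 9.87% in No Dox, so that No Dox replicate 1 stood apart, and without it the p was 0.36. Its call was also lost without Dox replicate 1 (0.097) or Dox replicate 2 (0.10). ITSN1-210 held 0.63 ± 0.41% in Dox and 1.29 ± 0.27% in No Dox (SD), and its call was lost without Dox replicate 1 (0.052) or Dox replicate 2 (0.14).

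BIN1 (ENSG00000136717.15), or amphiphysin 2, is best known for the membrane tubules of muscle and was the lowest of the 10 genes. It had 4.13, 4.15 and 4.49 CPM in the Dox samples and 4.32, 4.19 and 4.41 CPM in the No Dox samples, with a log2 fold change of -0.02 ± 0.08 (95% interval -0.19 to 0.16, edgeR adjusted p = 0.89). All 3 Dox libraries together held 825 fragments of BIN1 over 14 isoforms, so a shift between isoforms was poorly resolved (diffSplice adjusted p = 0.86). BIN1-213 (887 nt) held 29.6% to 44.3% in Dox and 39.0% to 53.2% in No Dox, and BIN1-208 (1832 nt) held 27.9% to 32.2% in Dox and 23.9% to 27.1% in No Dox. BIN1-214 (872 nt) ranged from 4.46% to 24.0% in Dox and from 2.47% to 21.3% in No Dox, and had 5.43 to 37.1 fragments in Dox and 3.64 to 33.5 in No Dox. None of these 3 isoforms passed (limma-voom adjusted p = 0.26, 0.71 and 0.95).

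The 148 isoforms of the 10 genes not named above each held at most 9.83% of their gene on average in a group.

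Beyond these genes, 56 others of the pathway were tested at the gene level, and 13 rose, 18 fell and 25 did not pass. That is 55.4%, against 51.4% of all genes, and the median log2 fold change was 0.00. When libraries were scaled by their totals alone, without TMM, 18 rose and 14 fell. The median log2 fold change over all genes tested was then 0.05 instead of 0.00. Of the 51 that could be tested for usage, 18 passed, against 27.5% of all genes so tested, a share not matched for the number of isoforms.

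Among the coat and adaptor subunits, 5 of 6 fell and none rose with TMM, against 26.5% down and 24.9% up over all genes tested. These were the AP-2 subunits AP2A2 (-0.12), AP2B1 (-0.15), AP2M1 (-0.19) and AP2S1 (-0.09), and CLTCL1 (-0.19), the second clathrin heavy chain of human cells. CLINT1, an adaptor of the trans-Golgi, did not pass (0.05, edgeR adjusted p = 0.11). All of these differences were small, and with scaling by library totals 3 of the 6 fell and 1 rose. In TPM the groups overlapped for AP2A2, AP2S1 and CLINT1. Of the members that are coat or adaptor genes, CLTC, CLTA, CLTB, AP2A1 and PICALM did not pass at the gene level, and SNAP91 rose.

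Of 17 dynamin and membrane-bending proteins, 4 rose and 5 fell, which is 52.9%, against 51.4% of all genes tested. With scaling by library totals, 6 rose and 4 fell. SH3GL2, endophilin A1 of neurons, was at 5.16 ± 0.15 TPM in Dox and 9.52 ± 0.46 TPM in No Dox, with a log2 fold change of -0.92 in counts. Log2 fold changes here and in the next paragraph are those of summed counts (edgeR), which need not match the ratio of the TPM. PACSIN3, an F-BAR protein of muscle, was at 24.1 ± 1.3 TPM in Dox and 32.7 ± 1.3 TPM in No Dox (-0.47). Endophilin A2, SH3GL1, was at 44.3 ± 2.7 TPM in Dox and 51.6 ± 0.4 TPM in No Dox (-0.26). FNBP1L, an F-BAR protein that promotes actin assembly, went up, with 20.1 ± 0.8 TPM in Dox and 13.7 ± 0.4 TPM in No Dox (0.33). DNM3, the remaining dynamin, rose by 0.31 ± 0.10 in counts (edgeR adjusted p = 0.013). Its level was low, at 2.09 ± 0.30 TPM in Dox and 1.77 ± 0.36 TPM in No Dox, and the TPM of the groups overlapped.

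Of 16 scaffolds and cargo adaptors, 4 rose and 5 fell (56.25%, against 51.4% of all genes tested). REPS1, an EH domain protein, was at 50.8 ± 1.7 TPM in Dox and 40.4 ± 2.1 TPM in No Dox (log2 fold change of counts 0.50). EPS15L1, a partner of AP-2, was at 26.8 ± 0.5 TPM in Dox and 33.8 ± 0.9 TPM in No Dox (-0.30), and HIP1R, which links clathrin to actin, was at 20.1 ± 1.2 TPM in Dox and 23.0 ± 0.3 TPM in No Dox (-0.28). Of 12 kinases, uncoating factors and lipid enzymes, 4 rose and 2 fell (50%), and with scaling by library totals 6 rose and 1 fell. Of 5 cargo receptors, 1 rose and 1 fell (40%). The one that fell was IGF2R, which carries lysosomal enzymes and IGF-II. Its summed counts fell by 0.27 on the log2 scale. Its TPM went the other way, at 33.0 ± 0.2 in Dox and 32.6 ± 0.1 in No Dox, and the groups did not overlap. The calls of these 8 genes, chosen as the largest changes among those at 5 TPM or more, held in all 9 alternatives run on them. Those alternatives did not include the fits on TPM.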

How the data were processed

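Stranded mRNA libraries of 6 samples were sequenced by the authors, who trimmed reads with cutadapt, aligned with STAR to human GRCh38 and quantified isoforms with RSEM. Tool versions and RSEM's strand setting were not given in the sources used here. Deposited expected counts are unnormalized fragment estimates, which need not be whole. The deposited TPM are scaled by RSEM for effective length and sample total. The deposited isoform percentage is an isoform's share of gene TPM, in percent. Per the file headers, other columns give length and effective length.

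Gene sums of the expected counts, rounded, were tested with edgeR 4.0.16 (glmQLFit and glmQLFTest, TMM, filterByExpr) in R 4.3.3. For isoforms limma-voom was used (limma 3.58.1), and for usage diffSplice, by Simes p per gene. All tests were two-sided over the whole tables with Benjamini-Hochberg adjustment at 0.05. In simulated data the usage test called more unchanged genes than its threshold allows. Replicates differed by more than sampling noise. A sample-wise exact permutation test of 3 against 3 cannot go below p = 0.1 and was not used.

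All 10 genes were named, with each isoform at a mean of at least 10% of a gene in a group or past a test, and the 8 most changed other endocytosis genes at 5 TPM or more. The members and lists were chosen with earlier results of these data known. Alternatives were DESeq2 1.42.0, other scalings, filters and units, diffSpliceDGE, a block by replicate number, and omission of each sample. Human sequences and coordinates were not used here.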

Additional observations from a re-analysis of the deposited data

How the results depend on the processing

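Over all alternatives, 3 to 5 of the 10 genes were called at the gene level (4 reported), 25 to 32 of the other endocytosis genes (31 reported), 15 to 26 isoforms (21 reported) and 5 to 8 genes for usage (7 reported). Over the whole tables, calls ranged from 6977 to 9805 genes, from 5518 to 15546 isoforms and from 1225 to 3446 genes for usage. The counts of members therefore cannot be read alone. The other endocytosis genes were run in 9 alternatives, which did not include the fits on TPM. DNM2 and ITSN1 held in all 14 alternatives. SNAP91 and DNM1 held in all counts-based fits and were lost on log2(TPM + 1) (adjusted p = 0.997 and 0.48). Some small, uncalled gene differences changed sign. With library totals alone, PICALM was at 0.026, CLTB at 0.0014, AP2A1 at 0.0020, BIN1 at 0.031 and ITSN1-208 at 0.0046 on the log2 scale, and CLTA was called (adjusted p = 0.028). On log2(TPM + 1) and log2(TPM + 0.1), PICALM was at 0.031 and 0.032 and CLTC at 0.28 in both. CLTC was also called without the filter on low counts (-0.06, adjusted p = 0.039). BIN1-214 was at -0.19 with DESeq2 and with edgeR, at -0.057 and -0.041 with the TPM pseudocounts 1 and 0.1, and at -0.16 (usage -0.25) with the replicate block. With each sample left out in turn, some values without a call ranged across 0: BIN1 from -0.058 to 0.0085, AP2A1 from -0.070 to 0.0021, BIN1-214 from -0.93 to 0.76, ITSN1-208 from -0.082 to 0.096 and AP2A1-204 from -0.25 to 0.11, and in usage BIN1-214 from -0.98 to 0.78, BIN1-208 from -0.019 to 0.29, AP2A1-204 from -0.22 to 0.16 and DNM1-222 from -0.050 to 0.10. Of the isoforms, CLTC-201 was lost with library totals alone (adjusted p = 0.059) and on log2(TPM + 1) (0.11), DNM1-214 without the filter (0.065) and on log2(TPM + 1) (0.075), DNM2-215 on log2(TPM + 1) (0.058), and DNM2-204 with DESeq2 (0.073) and edgeR (0.14). Over the whole tables, diffSpliceDGE called 1225 genes for usage against 3386 with diffSplice, and DESeq2 called 15546 isoforms against 9151 with limma-voom, which called as few as 5518 with a sample left out. Without DNM1-221, an alternative chosen after seeing the data, the log2 ratio of mean TPM of DNM1 was -0.42 instead of -0.14, and without CLTC-205 that of CLTC was -0.01 instead of 0.28. With both not counted, the median largest isoform shift of the members was 5.40 points instead of 15.2. The cause of each other change was not tested.

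Deviations of samples with the same replicate number correlated at 0.041, 0.028 and 0.057, and those of other pairs from -0.038 to -0.0024. These values are small, but each sample correlated best with its own number. They do not settle whether the replicate numbers pair the samples, and the main tests treated the samples as unpaired. With the number as a block, 4 genes, 20 isoforms and 8 genes for usage were called, the added one being AP2A1 (adjusted p = 0.0015). DNM2-204 (0.10) and DNM1-222 (0.059) were lost as isoforms, and DNM1-202 (0.052), CLTA-202 (0.066) and CLTC-209 (0.086) for usage. The shares called over all genes and isoforms with the block are not given here, so these counts say nothing particular to the members.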

Other observations

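AP2A1-202 had 342, 36.3 and 35.6 fragments in the Dox samples and 0, 0 and 0 in the No Dox samples. It was chosen after its values were seen, and Dox replicate 1 stood apart from the other Dox samples. Over the 6 samples, the genes whose log2 CPM followed that of PICALM most closely were MTFMT (Pearson r = 0.98), MFN1 (0.97) and DMAC2L (0.97), picked as the highest of all genes tested.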
